A study of Mus musculus with 18 samples.

Results

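The genes described here encode the machinery of oxidative phosphorylation. They were chosen by symbol alone, as the protein-coding rows that begin with Ndufa, Ndufb, Ndufc, Ndufs, Ndufv, Uqcr, Sdh, Cox4 to Cox8 or Atp5, together with the protein-coding genes of the mitochondrial genome, and pseudogenes were left out. The rule found 110 of the 46078 genes in the count table. Of these, 97 lie in the nucleus and 13 in mitochondrial DNA. The nuclear genes comprise 36 subunits and 8 assembly factors of complex I, 4 subunits and 4 assembly factors of complex II, 8 genes of complex III, 20 of complex IV and 17 of the ATP synthase. The mitochondrial genes comprise 7 subunits of complex I, 1 of complex III, 3 of complex IV and 2 of the ATP synthase. Assembly factors (the Ndufaf and Sdhaf genes) help to build a complex and are not part of it, so they are given apart from the subunits.

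Complexes I to IV form the respiratory chain of the inner mitochondrial membrane. Complex I takes electrons from NADH and complex II from succinate, complex III passes them from ubiquinone to cytochrome c, complex IV passes them to oxygen, and the ATP synthase uses the proton gradient that complexes I, III and IV build up. Complex II is the only complex with no subunit made in the mitochondrion. All others need products of both genomes, and the mitochondrial genome is read as long precursor RNAs that are later divided into separate messages. Resting lymphocytes rely largely on this pathway for ATP, and natural killer (NK) cells raise it when cytokines activate them.

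Each library came from 200 sorted cells and was built by SMART-seq, a method that copies whole messages from very little RNA. Type 1 innate lymphoid cells of the liver (ILC1s, lymphocytes that stay in a tissue) were sorted as CD3-, NK1.1+, NKp46+, CD49a+, CD49b low and IL-7R+, liver NK cells (circulating killer lymphocytes) as CD3-, NK1.1+, NKp46+, CD49a- and CD49b+, and spleen ILC1s formed the third population. All mice were C57BL/6, 8 weeks of age, and all carried Ncr1-Cre, a Cre recombinase made in cells that express NKp46. The control mice had Ncr1-Cre alone (genotype Ncr1-Cre). The RARa403 mice also had RARalpha403 at Rosa26 (genotype Ncr1-Cre; Rosa26-RARalpha403), a truncated retinoic acid receptor alpha that acts as a dominant negative wherever Cre has switched it on. Each of the 6 groups, liver ILC1, liver NK and spleen ILC1 in control or RARa403 mice, had 3 libraries. The title of the series asks whether ILC1s need retinoic acid receptor activity to be maintained. Which animal gave which library is not stated in the labels, so the spread between libraries may be partly technical.

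Several mitochondrial genes have annotated copies in the nuclear genome, and the sequences show why their counts are uncertain. The copies lie next to each other on chromosome 1 in mm10, on the minus strand, from Gm28439 (chr1:24611535-24612410) to Gm29216 (chr1:24615706-24616197). The first 60 bases of 3 genes and of their copies are shown, read 5′ to 3′ on the coding strand, in lower case throughout because no base differs.
mt-Co2: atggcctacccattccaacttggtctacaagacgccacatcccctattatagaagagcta
Gm28661: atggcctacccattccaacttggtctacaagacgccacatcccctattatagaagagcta
mt-Co3: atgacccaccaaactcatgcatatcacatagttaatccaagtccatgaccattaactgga
Gm28437: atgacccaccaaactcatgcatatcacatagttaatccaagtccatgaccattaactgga
mt-Atp6: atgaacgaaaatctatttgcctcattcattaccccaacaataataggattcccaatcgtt
Gm10925: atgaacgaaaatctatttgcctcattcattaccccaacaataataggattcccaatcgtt
The identity runs on past this stretch, with 0 differences over all 681 bases compared for mt-Co2 and Gm28661, 783 for mt-Co3 and Gm28437, and 678 for mt-Atp6 and Gm10925. It also held over 876 bases for mt-Nd4 and Gm28439 and over 294 bases for mt-Nd4l and Gm10222.

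A read from such a stretch fits the mitochondrial gene and its copy equally well. Of all 50-base stretches, 100% were found in another annotated transcript for mt-Co2, 99.9% for mt-Co3, 99.5% for mt-Atp6, 98.8% for mt-Nd4l and 98.0% for mt-Nd3. The share was 62.2% for mt-Nd4 and 51.1% for mt-Co1, 8.19% for mt-Nd2 and 7.61% for mt-Nd5, and 0% for mt-Nd1, mt-Nd6, mt-Atp8 and mt-Cytb. Over the 18 libraries Gm10925 held 19315 counts against 17370 for mt-Atp6, and Gm28437 held 14306 against 10064 for mt-Co3. Gm28661 held 6968 against 8147 for mt-Co2. For these 3 genes the counts of gene and copy were thus of similar size. Gm29216 held 2989 against 105995 for mt-Co1, and Gm28439 held 993 against 55957 for mt-Nd4. Gm10222 held 116 against 131 for mt-Nd4l and Gm28438 held 49 against 88 for mt-Nd3. The 7 copies together came to 7.07 to 9.34 counts per 100 on the mitochondrial genes in every library, and the ranges of some groups did not overlap. Spleen ILC1 RARa403 libraries had 7.44 to 7.62 and liver NK RARa403 libraries 8.42 to 8.77. The sources used here do not give how multi-mapping reads were treated, so the levels of the genes with copies are uncertain. Among the 97 nuclear genes the highest share of such stretches was 38.3%, for Atp5g2.

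**Figure D1:**
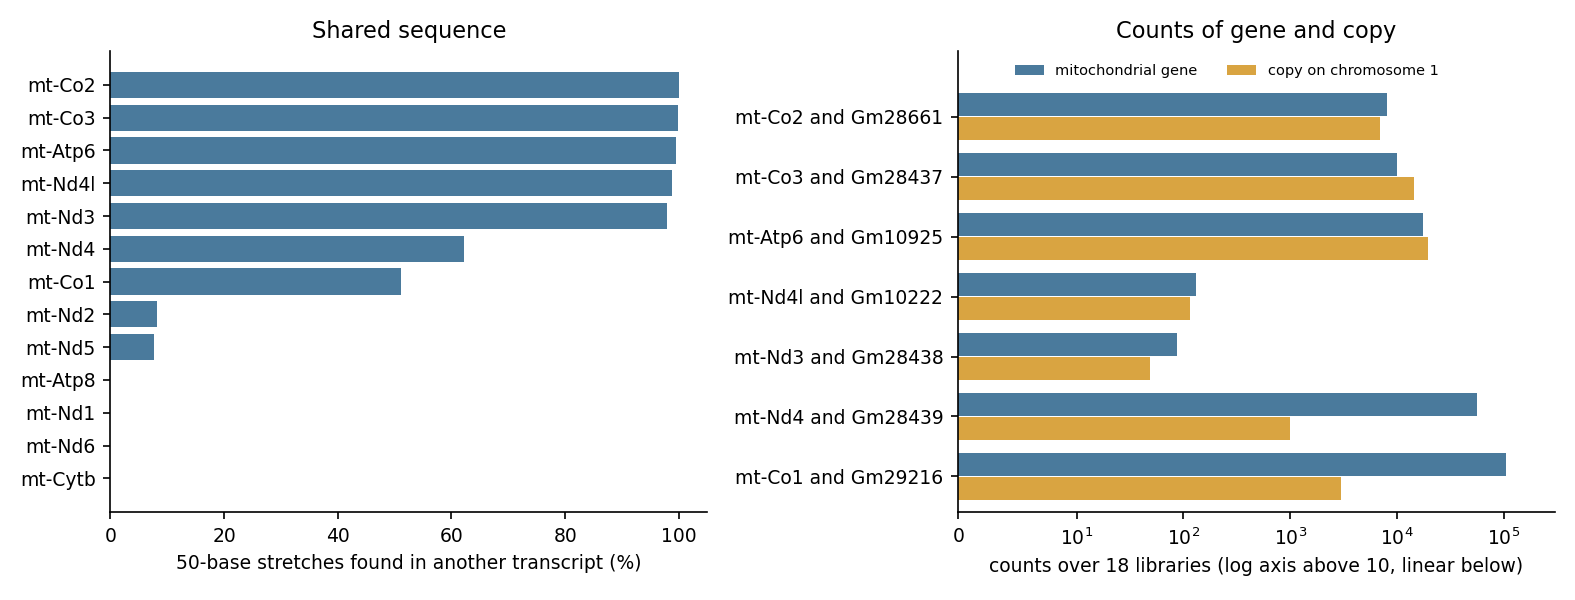
The left plot gives, for each of the 13 mitochondrial genes, the share of its 50-base stretches that occur in another annotated transcript (percent). The right plot gives the counts summed over 18 libraries (logarithmic axis above 10) of 7 of these genes and of their copies on chromosome 1, where the bars of mt-Atp6 and mt-Co3 are shorter than those of their copies.

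The nuclear genes are spread over many chromosomes, and their promoters were examined for shared motifs. RefSeq promoters (GRCm38.p6, 300 bases, 250 before and 50 after the first listed start) matched 80 of the 97 nuclear genes, of which 77 had enough counts to be tested. The 8-base core of the NRF1 site, CGCATGCG, occurred on either strand in 10 of those 77 promoters (13%). It occurred in 3.93% of the promoters of 9693 other tested protein-coding genes and in 1.91% of all 27025 promoters. The YY1 motif AAGATGGC likewise occurred in 10 (13%), against 4.76% and 2.88%, and the ETS motif CCGGAAG in 20 (26%), against 18.6% and 9.12%. The ESRRA motif TCAAGGTCA occurred in 2 promoters (2.60%), against 0.227% and 0.407%. NF-Y boxes, CCAAT, were about as frequent as elsewhere (42.9%, 39.4% and 37.9%), and SP1 boxes, GGGCGG, lay in 49.4%, between 63.5% and 35.9%. A direct repeat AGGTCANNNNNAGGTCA, a classical arrangement bound by retinoic acid receptors, was found in 0 of the 80 promoters and in 2 of all 27025. So rare a motif would hardly be met in 80 promoters, and the 0 does not show that receptor sites are absent. All these motif counts are matches of letters only, and the median GC content was 59.0%, 60.7% and 52.7% in the 3 sets.

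Promoters of 4 abundant subunits show these motifs in different combinations, read 5′ to 3′ on the gene's strand, with capitals for a match on either strand to the NRF1, ETS, YY1, NF-Y, SP1, CRE (TGACGTCA) or ESRRA motif. Uqcrc1 (chr9:108936398-108936697, plus strand) has an NRF1 match near the end of the window, Cox8a (chr19:7217567-7217866, minus strand) has 2 ETS matches and an NF-Y box, Sdhd (chr9:50603800-50604099, minus strand) has an ETS, an SP1 and an ESRRA match, and Atp5b (chr10:128083057-128083356, plus strand) has 5 NF-Y and 2 SP1 boxes.
Uqcrc1: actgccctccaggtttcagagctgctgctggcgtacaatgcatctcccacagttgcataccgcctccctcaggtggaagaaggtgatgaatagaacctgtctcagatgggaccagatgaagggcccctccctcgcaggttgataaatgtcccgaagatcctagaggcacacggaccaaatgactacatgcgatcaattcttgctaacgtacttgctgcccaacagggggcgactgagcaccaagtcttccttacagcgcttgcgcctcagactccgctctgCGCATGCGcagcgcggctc
Cox8a: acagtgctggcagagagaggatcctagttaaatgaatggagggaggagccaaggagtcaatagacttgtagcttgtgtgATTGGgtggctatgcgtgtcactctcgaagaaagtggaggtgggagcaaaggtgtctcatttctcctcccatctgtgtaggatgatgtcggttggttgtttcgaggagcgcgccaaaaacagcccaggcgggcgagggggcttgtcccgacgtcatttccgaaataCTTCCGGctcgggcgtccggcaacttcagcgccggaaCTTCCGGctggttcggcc
Sdhd: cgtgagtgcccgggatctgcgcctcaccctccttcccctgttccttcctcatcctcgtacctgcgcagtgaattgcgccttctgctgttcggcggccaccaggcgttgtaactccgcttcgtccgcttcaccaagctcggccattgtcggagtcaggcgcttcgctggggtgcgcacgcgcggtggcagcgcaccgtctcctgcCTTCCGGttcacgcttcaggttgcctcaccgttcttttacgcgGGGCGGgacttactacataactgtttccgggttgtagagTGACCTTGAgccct
Atp5b: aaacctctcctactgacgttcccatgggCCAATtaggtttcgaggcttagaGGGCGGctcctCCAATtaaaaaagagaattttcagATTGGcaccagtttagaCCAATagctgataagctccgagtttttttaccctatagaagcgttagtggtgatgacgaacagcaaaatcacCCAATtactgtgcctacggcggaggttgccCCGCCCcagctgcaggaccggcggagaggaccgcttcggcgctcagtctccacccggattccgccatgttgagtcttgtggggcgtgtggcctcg
No motif is common to all 4 promoters.

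Depth ranged from 3452279 to 9038767 counts per library, with 14307 to 19211 genes detected. Summed CPM (counts scaled to a common library size) of 6 ILC1 markers were 1734 to 3314 in the ILC1 libraries and 246 to 516 in the NK libraries, and those of 7 NK markers were 89.9 to 1231 and 2853 to 5074. For 8 markers shared by both cell types the sums were 12024 to 25963. T cell markers (8 genes) summed to 627 to 1151 CPM in ILC1 libraries and 115 to 185 in NK libraries although all cells were gated as CD3-negative. At most 3 of the 8 were at 0 in an ILC1 library. B cell markers (6 genes) summed to 22.1 to 849 CPM in 17 libraries and to 2727 in spleen ILC1 control library 3. Erythroid markers (5 genes) ranged from 0 to 2502 CPM, hepatocyte markers (8 genes) from 0 to 165, myeloid markers (7 genes) from 85.9 to 717 and endothelial markers (4 genes) from 14.7 to 307. In bulk libraries fewer cells of a type and less RNA per cell cannot be told apart. Rara, the endogenous receptor gene, was at 4.70 to 5.55 log2 CPM in the 9 control libraries, at 4.51 to 5.70 in RARa403 libraries 2 and 3, and at 5.35 (liver ILC1), 8.75 (liver NK) and 5.81 (spleen ILC1) in RARa403 library 1. Gt(ROSA)26Sor, a noncoding transcript of the locus that carries the transgene, had 104 to 1260 counts in the controls (4.51 to 7.25 log2 CPM) and 0 to 10 in RARa403 libraries 2 and 3. RARa403 library 1 of liver ILC1s held 5.98 log2 CPM of it and that of spleen ILC1s 5.83, while that of liver NK cells had 0 counts. The 2 ILC1 libraries labelled RARa403 library 1 thus lay within the control range for that transcript. Groups are kept as labelled, and the medians of the RARa403 comparisons are given also with libraries 2 and 3 of each group only.

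Before any comparison, liver NK RARa403 library 1 has to be set apart, because its mitochondrial mRNA was far lower than elsewhere. The 13 mitochondrial genes held 0.0293% of its counts, against 0.281 to 1.25% in the other 17 libraries. The 97 nuclear genes held 0.418%, against 0.811 to 1.09%. Mitochondrial ribosomal RNA was not low there (0.208%, within 0.0434 to 0.212% elsewhere), so that it came to 709 counts per 100 counts of mitochondrial mRNA, against 12 to 31.5. Genes listed as marks of RNA quality, ribosomal RNA among them, held 3.34% of its counts, against 0.0932 to 0.248%.

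The shortfall was uneven across the genes. It is given here in CPM, scaled by library totals alone, while log2 CPM elsewhere also carry TMM scaling. On log2 CPM this library reads higher. All 12 mitochondrial genes with counts in each other library lay below the range of those 17, at a median of 0.0871 times their median CPM. The lowest was mt-Nd4, with 4 counts where every other library had at least 1419, and the highest was mt-Nd5 at 0.264 times the median, with 476 counts. Of 86 nuclear genes with counts in each other library, 50 lay below the range of the 17, 2 above it and 34 within it, at a median ratio of 0.480. Sdhd (a membrane anchor of complex II), Ndufc1, Ndufaf7, Ndufaf8 and Sdhaf4 had 0 counts, and Ndufv2 had 4, Cox7a2l 2 and Atp5f1 22, where every other library had at least 412, 292 and 1130. Cox6a1 (ratio 2.11) and Ndufaf3 (2.04) were the 2 above the range. The same pattern reached beyond these genes, since 192 of 2735 genes (7.02%) above 50 CPM in each other library had 3 counts or fewer here. The medians over the genes and the main single genes of the comparisons with NK RARa403 cells are therefore also given without this library.

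**Figure D2:**
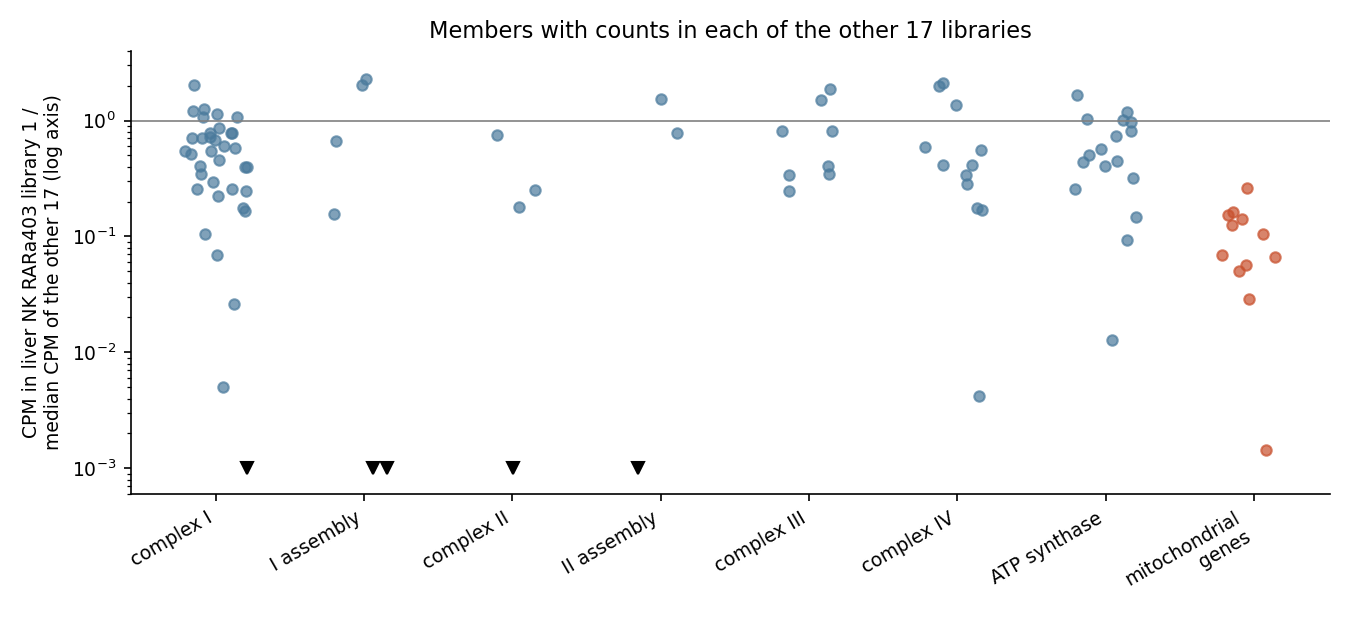
Each point is a gene with counts in all other 17 libraries, placed by its CPM in liver NK RARa403 library 1 divided by the median CPM of those 17 (logarithmic axis; triangles at the lower edge mark 0 counts), in columns for the nuclear genes of each complex and for the 12 mitochondrial genes. The mitochondrial genes lie between 0.00145 and 0.264, while nuclear genes spread from 0 to 2.26.

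Across the libraries the respiratory chain was transcribed at high levels, and mitochondrial messages led. By mean log2 RPKM, a level per length, mt-Cytb (the only mitochondrial gene of complex III) stood highest at 10.07, followed by mt-Nd1 (complex I) at 9.64 and mt-Co1 (the catalytic subunit of complex IV) at 8.83. The highest nuclear genes per length were Atp5a1 (7.90) and Atp5b (7.78), the subunits that form the catalytic head of the ATP synthase, and Cox8a (7.74) and Cox6a1 (7.53) of complex IV. In the other complexes they were Sdhd (6.70), Uqcrb of complex III (6.68) and Ndufb11, an accessory subunit of complex I (6.64). Among the assembly factors Ndufaf1 led for complex I (4.51) and Sdhaf4 for complex II (4.43).

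Tissue isoforms of complex IV were nearly silent. Cox8c had 0 counts in all 18 libraries. Cox7a1, the heart and muscle form, had at most 3 counts, Cox8b at most 4, and Cox4i2, a hypoxia-associated form, at most 23. Cox7b2 had counts in spleen ILC1 RARa403 library 1 only (22), and Ndufa4l2 had at most 9. These 6 genes did not pass the filter on low counts, and the other 104 (91 nuclear, 13 mitochondrial) were tested among 14714 genes. Cox6a2 (0 to 37 counts) and Cox6b2 (0 to 36) passed the filter without a count in every library, so their fold changes rest on few reads. The ubiquitous forms were present throughout, such as Cox4i1 at 7.15 to 8.31 log2 CPM over the 18 libraries.

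The nuclear complexes kept similar means in all 6 groups. Mean log2 CPM of the 8 complex III genes lay between 6.03 and 6.19 over the groups, that of the 17 ATP synthase genes between 6.49 and 6.75, that of the 36 complex I subunits between 5.37 and 5.79 and that of 12 complex IV genes without the tissue isoforms between 6.17 and 6.63. Complex II means lay between 6.54 and 7.49, and the low end was the NK RARa403 group with its SD of 1.89. Means of the mitochondrial genes moved by 1.65 (ATP synthase) to 1.96 (complex IV) between the highest and the lowest group, and again the lowest group was NK RARa403. Without liver NK RARa403 library 1 these ranges were 0.94 and 1.11, and complex II lay between 7.27 and 7.64. Among single genes at 3 log2 CPM or more, the range of group means was smallest for Ndufb9 (0.15), an accessory subunit of complex I, and largest for mt-Nd4 (3.58). Without liver NK RARa403 library 1 these ends became Uqcrb (0.08) and Ndufaf5 (2.31), and mt-Nd4 came to 0.99. Sdhd, the nuclear gene with the largest range (3.11), came to 0.36.

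**Figure D3:**
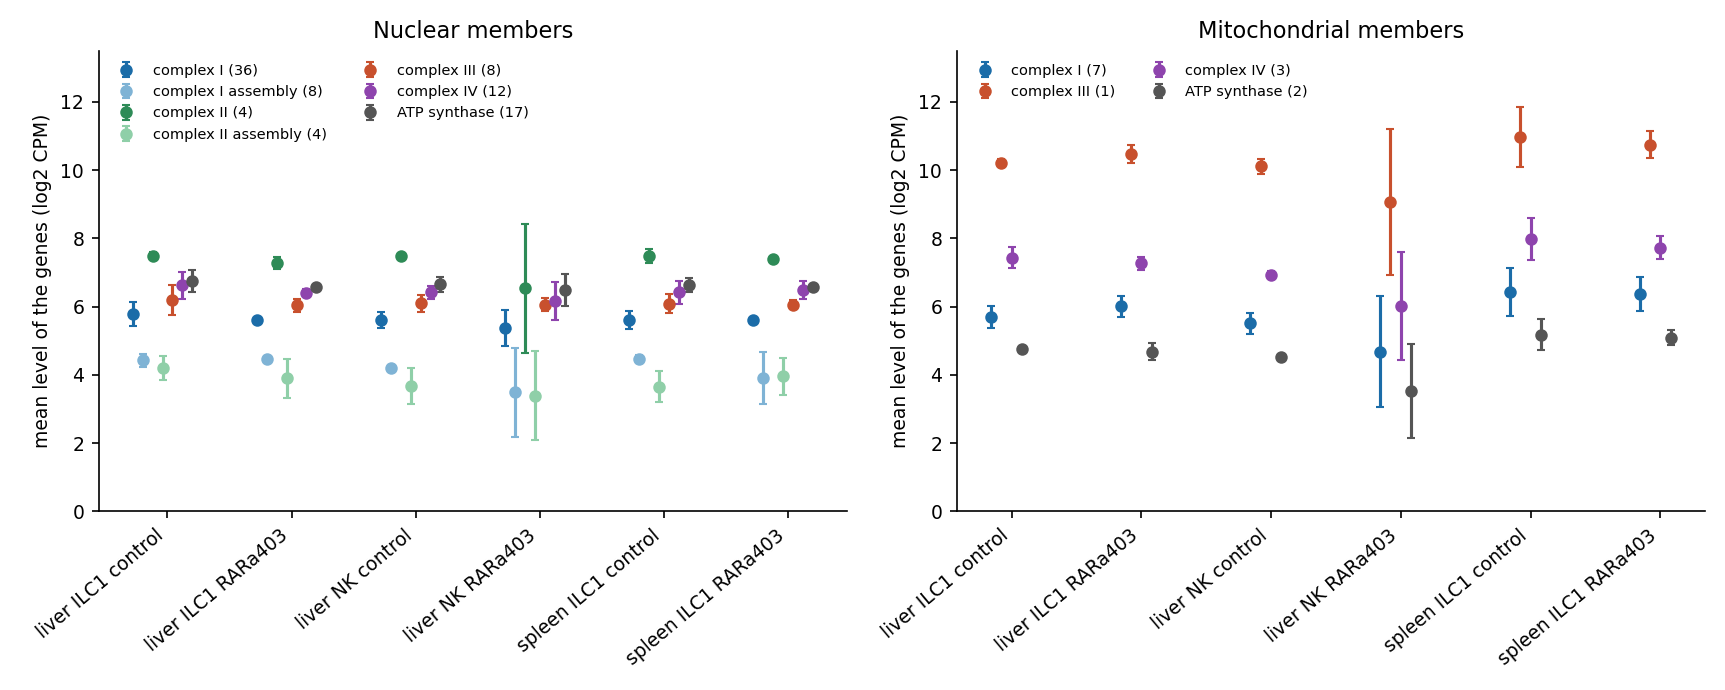
Points give the group mean, and bars the SD over 3 libraries, of the mean log2 CPM of the genes of each complex, for nuclear genes on the left and mitochondrial genes on the right, with the number of genes in brackets and the 6 groups along the horizontal axis. Nuclear complex III stays between 6.03 and 6.19, while the bars of the NK RARa403 group are long in both plots.

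The balance between the genomes was read from counts on the 13 mitochondrial genes per 100 counts on the 97 nuclear genes. Liver ILC1 control libraries 1 to 3 had 46.8, 43.7 and 47.5, and liver ILC1 RARa403 libraries 63.3, 54.5 and 45.0. Liver NK control libraries had 39.0, 37.3 and 35.7, and NK RARa403 libraries 7.02, 48.5 and 31.1. Spleen ILC1 control libraries had 46.6, 65.5 and 153, and spleen ILC1 RARa403 libraries 70.0, 85.7 and 54.9. The control NK libraries lay below all ILC1 libraries, the spleen libraries reached highest, and within each population the ranges of control and RARa403 overlapped. For liver ILC1s the log2 difference was 0.23, with a pooled SD of 0.18. With only the mitochondrial genes that share little sequence with other transcripts, liver ILC1s no longer overlapped. RARa403 libraries had 42.5, 34.6 and 31.0 and control libraries 25.9, 27.5 and 29.6. Liver NK cells and spleen ILC1s still overlapped. This measure was chosen after the data were seen, and the difference was not tested. Spleen ILC1 control library 3 exceeded every other library, with 1.25% of its counts on mitochondrial mRNA against at most 0.721% elsewhere. It was also the library with the highest B cell markers, 2727 CPM, and the part of that in the result was not tested.

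The nuclear share itself varied little outside liver NK RARa403 library 1. It was 1.09, 0.920 and 0.811% of counts in liver ILC1 control libraries and 0.877, 0.816 and 0.881% in RARa403, 0.990, 0.871 and 0.827% in NK control, and 0.418, 0.974 and 0.904% in NK RARa403. Spleen ILC1 control libraries had 1.03, 0.856 and 0.815% and RARa403 libraries 0.957, 0.841 and 0.867%. Library 1 was the highest of its group in 4 of the 6 groups. Libraries numbered 1 carry a description code that opens with 1 and all others a code that opens with 2. Liver ILC1 control library 1 had the highest nuclear share of all 18, and its short nuclear genes lay above its long ones by 0.316 on the log2 scale, where all others were between −0.142 and 0.315. Medians over the nuclear genes whose direction turned without it are also given without it. Single genes are mostly given with it only, also where it was the highest of its group, as for Ndufa5, Ndufa11 and mt-Co1. Its erythroid markers summed to 2360 CPM and its hepatocyte markers to 165, and the part of these in the results was not tested.

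**Figure D4:**
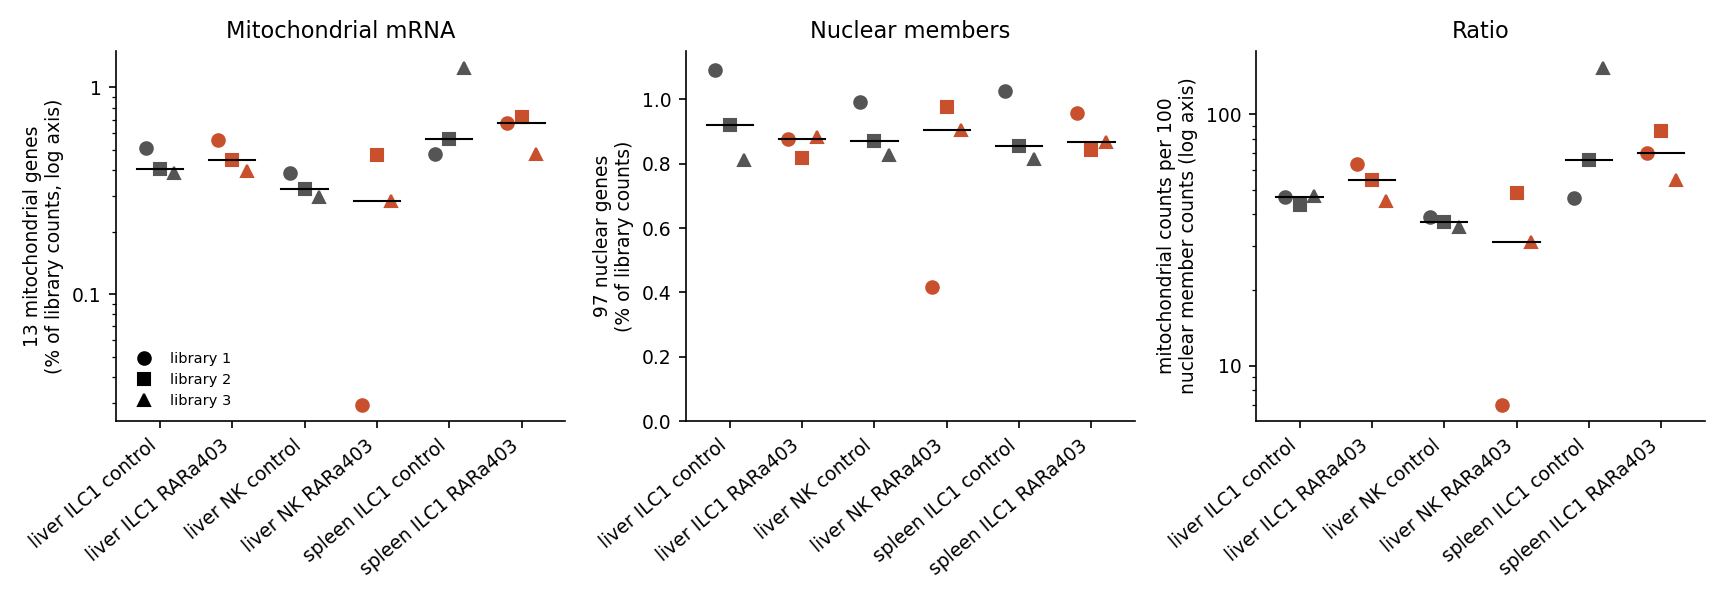
Each point is a library, in 6 groups along the horizontal axis: the share of counts on the 13 mitochondrial genes (percent) on a logarithmic axis on the left, on the 97 nuclear genes (percent) in the middle, and mitochondrial counts per 100 nuclear counts on a logarithmic axis on the right, with lines at the group medians. Liver NK RARa403 library 1 lies lowest in all 3 plots (0.0293%, 0.418% and 7.02), and spleen ILC1 control library 3 highest for mitochondrial mRNA (1.25%) and for the ratio (153).

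The mix of mitochondrial messages in liver NK RARa403 library 1 lay outside the range of the other 17 libraries for several genes. There mt-Nd4 made up 0.225% of the counts on the 13 genes, against 8.17 to 12.05% elsewhere, while mt-Nd5 made up 26.8% (5.60 to 8.58%), mt-Nd2 12.2% (4.67 to 7.47%) and mt-Co2 3.83% (1.17 to 1.99%). Counts on mt-Nd1 came to 50.9 to 75.9 per 100 on mt-Cytb in every library. Counts on mt-Nd5 came to 17.8 to 28.2 per 100, except in liver NK RARa403 library 1 (117). For mt-Co1 the values were 113, 68.8 and 68.8 in liver ILC1 control libraries and 52.6, 69.5 and 47.4 in RARa403, and 28.1, 55.7 and 51.5 in NK control and 34.6, 48.4 and 40.6 in NK RARa403. Spleen ILC1 libraries had 90.5, 65.1 and 57.4 in control and 98.1, 50.4 and 52.0 in RARa403. Thus mt-Co1 per mt-Cytb was higher in each control liver ILC1 library than in each control NK library, while control and RARa403 libraries overlapped in each population.

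Control liver ILC1s were compared with control liver NK cells to see whether the cell types differ in this machinery. In the counts, ILC1s held more mitochondrial per nuclear message, 46.02 ± 2.02 against 37.3 ± 1.68 per 100 (SD, n = 3), with no overlap of the libraries. The difference of the log2 ratio, 0.30, was larger than the pooled SD of 0.06. With the copies on chromosome 1 added, ILC1 libraries had 47.1 to 51.3 and NK libraries 38.7 to 42.7, again apart. With only the 6 mitochondrial genes that share under 10% of their 50-base stretches, the values were 25.9, 27.5 and 29.6 in ILC1s and 27.7, 25.0 and 23.4 in NK cells, which overlapped, and the log2 difference was 0.13. T cell markers differ between these cell types too (627 to 946 against 115 to 185 CPM), and their part in the result was not tested. In this ratio the cell types thus lay apart with all mitochondrial genes, with or without the copies. They did not with the 6 genes alone, which leave out mt-Co1.

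By gene, 0 of the 104 tested genes passed an adjusted p of 0.05 in the quasi-likelihood test of edgeR (Benjamini-Hochberg adjustment), where 0.428% of all 14714 genes were called higher and 0.177% lower in ILC1s. At an unadjusted p under 0.05, 1 of the 104 was higher and 0 lower, where 5.05% and 2.86% of all genes were. That gene was Ndufa5 (chr6:24518666-24528013, minus strand), an accessory subunit of the arm of complex I that takes up NADH electrons. Its log2 CPM was 5.85, 5.03 and 5.11 in control liver ILC1 libraries and 4.76, 3.86 and 4.22 in control NK libraries. Each ILC1 value lay above each NK value, with a log2 fold change of 1.06 (SE 0.42, edgeR adjusted p = 0.524). Next to it mt-Co1 (mitochondrial position 5328 to 6872) was at 10.52, 9.65 and 9.59 log2 CPM in ILC1s and 8.53, 9.11 and 9.08 in NK cells. Its libraries did not overlap either, with a log2 fold change of 1.06 (SE 0.67, edgeR adjusted p = 0.802). In total 6 genes lay higher in ILC1s without overlap of the libraries (Ndufa5, mt-Co1, Ndufs8, Ndufaf1, Ndufaf8 and Cox7a2l) and 1 lower (Sdhb), where 8.71% and 8.2% of all genes did so.

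Taken by complex, medians of the log2 fold change in control ILC1s against NK cells were 0.15 for 36 complex I subunits (27 higher), 0.22 for 14 complex IV genes (12 higher), 0.10 for 17 ATP synthase genes (11 higher), 0.08 for 8 complex III genes (6 higher) and −0.03 for complex II (1 of 4 higher). The 8 complex I assembly factors had a median of 0.36 (5 higher). All 91 nuclear genes had a median of 0.15 (64 higher) and the 13 mitochondrial genes 0.25 (12 higher), beside 0.03 for all genes, of which 52.3% were above 0. Without liver ILC1 control library 1 the nuclear median was −0.08 with 33 of 91 higher. Cox7a2 (0.54) and Ndufa6 (0.54) were the next higher values by p, and Ndufaf4 (−0.43), Cox5b (−0.36) and Sdhb (−0.24) the lowest p on the other side, with edgeR adjusted p = 0.840, 0.848, 1, 1 and 1.

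Pooling both genotypes, 6 libraries of each cell type, a comparison chosen after the values were seen, again left 0 genes called, where 1.39% of all genes were called higher and 0.7% lower in ILC1s. Sdhb (chr4:140961203-140979193, plus strand), the iron-sulphur subunit of complex II, had the smallest p. It was at 7.37, 7.09 and 7.15 log2 CPM in liver ILC1 control, 7.23, 7.15 and 7.06 in ILC1 RARa403, 7.53, 7.44 and 7.37 in NK control, and 7.46, 7.81 and 7.74 in NK RARa403 libraries. All 6 ILC1 values lay below all 6 NK values, though the closest pair differed by less than the rounding here (log2 fold change −0.39, SE 0.17, edgeR adjusted p = 0.306; −0.43 without liver NK RARa403 library 1). The other complex II subunits did not share this, and Sdhb was at 7.65, 7.03 and 6.99 in control and 7.25, 7.03 and 7.07 in RARa403 spleen ILC1s. Ndufaf1 (chr2:119655446-119662827, minus strand), which helps to assemble the membrane arm of complex I, was the other gene without overlap. It was at 5.44 to 6.20 log2 CPM in the 6 ILC1 libraries and 3.33 to 5.38 in the 6 NK libraries (log2 fold change 0.94, SE 0.50, edgeR adjusted p = 0.430), and the difference was 0.76 without liver NK RARa403 library 1. Such separation was seen in 1.72% of all genes for higher and 0.951% for lower values in ILC1s. For mt-Co1 the log2 fold change was 1.03 (SE 0.47, edgeR adjusted p = 0.343), and 0.77 without liver NK RARa403 library 1. The mitochondrial median was 0.50 (12 of 13 higher) and 0.25 without that library, and the nuclear median was 0.10 (57 of 91 higher) and 0.036 (55 of 91) without it. This direction turned without liver ILC1 control library 1, where it was −0.0036 with 45 of 91 higher, and by limma-voom it was −0.0060 (44 of 91). With libraries 2 and 3 of each group only it was −0.036 (37 of 91), and the mitochondrial median 0.24 (11 of 12).

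ILC1s of control spleens were set against those of control livers. Mitochondrial genes had all 13 log2 fold changes above 0 and a median of 0.75, beside 0.03 for all genes, of which 51.9% were above 0. The nuclear median was −0.16, with 26 of 91 above 0. No gene was called, and 0% of all genes were called in either direction by edgeR. At an unadjusted p under 0.05, 1 of the 104 genes was higher and 0 lower, where 2.36% and 0.822% of all genes were. That gene was mt-Nd5 (mitochondrial position 11742 to 13565), a proton-pumping subunit of complex I. It was at 8.21, 8.52 and 10.01 log2 CPM in spleen and 8.13, 8.14 and 8.29 in liver control libraries. Spleen library 3 stood far above the others and spleen library 1 within the liver range (log2 fold change 0.95, SE 0.42, edgeR adjusted p = 1). In the fit without liver NK RARa403 library 1, 8 of 13 mitochondrial genes had an unadjusted p under 0.05 on the higher side, where 3.3% of all genes did, and 0 were called. The 13 are read as long precursor RNAs, so they are not independent of each other.

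The other mitochondrial genes followed the same pattern in these libraries. By complex, medians were 0.80 for the 7 complex I genes, 0.93 for mt-Cytb, 0.59 for the 3 complex IV genes and 0.48 for the 2 ATP synthase genes. Cytochrome b was at 10.30, 10.66 and 11.95 log2 CPM in spleen and 10.35, 10.19 and 10.13 in liver, so that spleen library 1 lay within the liver range. Spleen values lay above all liver values for mt-Nd1 (9.88, 9.98 and 10.98 against 9.57, 9.60 and 9.35), mt-Co2 (6.29, 6.29 and 7.27 against 6.17, 5.91 and 5.85) and mt-Atp6 (7.36, 7.28 and 8.52 against 7.15, 7.10 and 7.01). Their log2 fold changes were 0.86, 0.71 and 0.75, each with edgeR adjusted p = 1. Without spleen ILC1 control library 3 all 13 genes were still above 0, but the median was 0.26.

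The nuclear genes without overlap in this comparison were Ndufa5 (−0.85, SE 0.42), Ndufa11 (−0.63) and Cox7a2 (−0.49), lower in spleen, each with edgeR adjusted p = 1, so that 3 of 104 genes lay lower and 3 higher without overlap, where 4.15% and 4.82% of all genes did. Ndufa11 belongs to the membrane arm of complex I. Spleen libraries had 5.16, 4.77 and 4.98 log2 CPM of it and liver libraries 6.11, 5.27 and 5.24. Atp5j2 (−0.64) also had a low p, and Ndufaf4 (0.39), Atp5c1 (0.20) and Ndufa9 (0.22) led on the higher side, each with edgeR adjusted p = 1. By complex the nuclear medians were −0.16 (complex I, 7 of 36 higher), 0.08 (complex II, 3 of 4), −0.20 (complex III, 2 of 8), −0.19 (complex IV, 2 of 14) and −0.08 (ATP synthase, 7 of 17). Without liver ILC1 control library 1 the nuclear median was 0.05 with 55 of 91 higher, so its direction rests on that library.

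Over both genotypes, a comparison chosen after the values were seen, spleen ILC1s again had all 13 mitochondrial fold changes above 0, with a median of 0.57 against −0.05 for the nuclear genes (30 of 91 above 0) and 0.02 for all genes, of which 52.4% were above 0. edgeR called 0 of the 104 genes and 0% of all genes, with an adjusted p of 1.00 for mt-Nd5 (log2 fold change 0.74, SE 0.30) and mt-Nd2 (0.68, SE 0.32). Those 2 had an unadjusted p under 0.05 on the higher side, where 3.18% of all genes did. In the fit without liver NK RARa403 library 1 that count was 9 of 13, where 5.76% of all genes reached it. That library is in neither group, but all libraries share the estimate of the spread, and again 0 were called (edgeR adjusted p = 0.584 for mt-Nd5). No gene separated all 6 spleen from all 6 liver libraries, where 0.136% and 0.102% of all genes did. The 13 mitochondrial genes are read as long precursor RNAs, so they are not independent of each other. Without spleen ILC1 control library 3 their median was 0.33. In that fit, with liver NK RARa403 library 1 kept, 0 of the 13 had an unadjusted edgeR p under 0.05. The nuclear median without liver ILC1 control library 1 was 0.038 with 56 of 91 above 0.

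**Figure D5:**
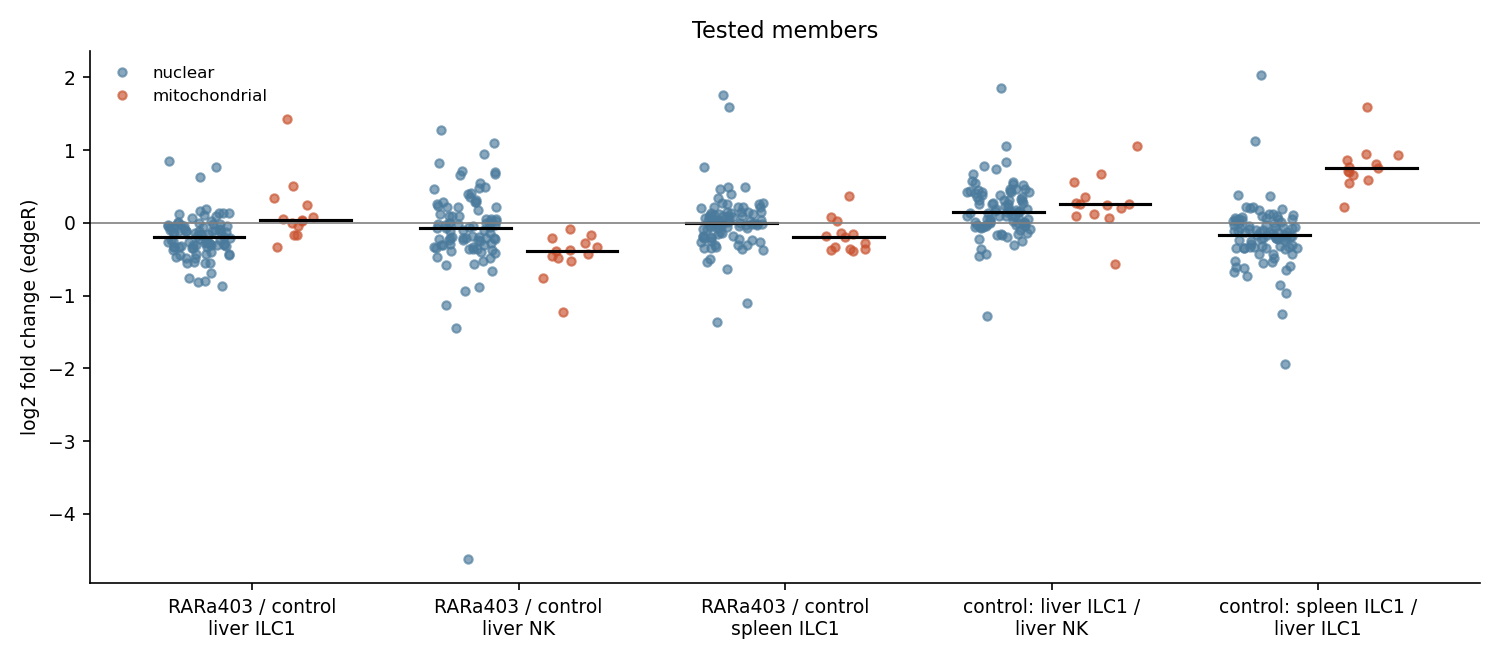
Each point is 1 of the 104 tested genes, nuclear in blue and mitochondrial in red, placed by its log2 fold change from edgeR in 5 comparisons, and black lines mark the medians. Mitochondrial genes all lie above 0 in spleen against liver (median 0.75) and all below 0 in NK RARa403 against control (median −0.39), and no gene passed the test in any of the 5.

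RARa403 liver ILC1s were compared with control liver ILC1s to see whether the dominant-negative receptor changes the pathway. Nuclear genes lay slightly lower, with a median log2 fold change of −0.19 and 14 of 91 above 0, and mitochondrial genes did not (0.04, 8 of 13 above 0), beside a median of 0 and 49.6% above 0 for all genes. The lower values were spread over the complexes, with medians of −0.15 for complex I (6 of 36 higher), −0.18 for complex II (0 of 4), −0.22 for complex III (0 of 8), −0.28 for complex IV (3 of 14) and −0.25 for the ATP synthase (1 of 17). Without liver ILC1 control library 1 the nuclear median was 0.02 with 48 of 91 above 0. With libraries 2 and 3 only it was −0.01 with 41 of 91, and the mitochondrial median was −0.03 with 5 of 12. The direction of the nuclear genes therefore rests on that control library.

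No gene was called in this comparison by edgeR, with 0% of all genes called, and 0 of the 104 had an unadjusted p under 0.05, where 1.67% and 1.27% of all genes did. Ndufa5 had the smallest p again. It was at 5.85, 5.03 and 5.11 log2 CPM in control and 4.62, 4.48 and 4.45 in RARa403 libraries. All RARa403 values lay below all control values (log2 fold change −0.87, SE 0.42, edgeR adjusted p = 1), and the difference was −0.61 with libraries 2 and 3 only. In RARa403 ILC1s Ndufa5 thus lay within the range of the control NK libraries, 3.86 to 4.76. The comparisons of control liver ILC1s with control NK cells and with control spleen ILC1s use the same 3 control liver ILC1 libraries. The Ndufa5 differences in these comparisons are therefore not independent of each other. Cox8a (chr19:7215153-7217616, minus strand), a small structural subunit of complex IV, was at 7.44, 7.36 and 7.14 in control and 6.90, 6.91 and 7.13 in RARa403 libraries (−0.33, edgeR adjusted p = 1). In total 3 genes, Ndufa5 and Cox8a among them, lay lower without overlap and 1 higher, mt-Nd1 (0.34, SE 0.54), where 4.43% and 5.08% of all genes did. The next lower values by p were Ndufs5 (−0.81) and Ndufb4 (−0.80), and the higher ones Atp5c1 (0.13), Ndufv3 (0.19) and Ndufa10 (0.13), each with edgeR adjusted p = 1. The sign of 2 of these turned, since Ndufa10 was at −0.17 with libraries 2 and 3 only, −0.019 without liver ILC1 control library 1 and −0.013 without liver ILC1 RARa403 library 1, and Ndufv3 at −0.040 without liver ILC1 control library 3.

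In liver NK cells the comparison of RARa403 with control depends on library 1. With it, all 13 mitochondrial fold changes lay below 0, with a median of −0.39, and the nuclear median was −0.07 (37 of 91 above 0), beside 0 for all genes, of which 48% were above 0. Without it, the mitochondrial median was 0.08 with 9 of 13 above 0 and the nuclear median 0.02 with 48 of 91. With libraries 2 and 3 of each group only, the medians were 0.22 (11 of 12) and 0.19 (67 of 91). In the counts, NK RARa403 libraries had 28.9 ± 20.8 mitochondrial per 100 nuclear counts against 37.3 ± 1.68 in control (SD, n = 3), a log2 difference of −0.76 with a pooled SD of 1.03, and 0.06 without library 1. For mt-Nd4 the RARa403 libraries had 0.36, 8.85 and 8.19 log2 CPM and the control libraries 8.85, 8.27 and 8.07, which shows library 1 alone apart.

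Of the 104 genes 0 were called in NK cells by edgeR, with 0% of all genes called. At an unadjusted p under 0.05, 1 was higher and 1 lower, where 7.9% and 1.74% of all genes were. The lower was Ndufv3 (chr17:31520115-31531331, plus strand), an accessory subunit of the NADH-binding part of complex I. It was at 5.92, 5.11 and 5.12 log2 CPM in control and 3.56, 5.04 and 4.52 in RARa403 libraries. All 3 RARa403 values were below the controls, library 2 by little (log2 fold change −0.94, SE 0.42, edgeR adjusted p = 0.492), and without library 1 the difference was −0.64. The higher was Ndufaf3 (chr9:108565537-108567434, minus strand), a complex I assembly factor, with 6.42, 4.35 and 4.72 in RARa403 against 4.72, 4.04 and 4.26 in control libraries (1.11, SE 0.52, edgeR adjusted p = 0.513). Here library 1 alone was high, and without it the difference was 0.17.

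Further NK differences also leaned on library 1. Sdha, the catalytic subunit of complex II, was at 6.47, 8.12 and 8.31 in RARa403 and 8.40, 8.70 and 8.36 in control libraries, all RARa403 values lower (−0.67, SE 0.35, edgeR adjusted p = 0.556), and −0.30 without library 1. Cox6a1 (0.71, edgeR adjusted p = 0.586) and Cox7c (0.68, edgeR adjusted p = 0.674), both of complex IV, were −0.09 and −0.04 without it, and Uqcrc2 of complex III was at −0.39 (edgeR adjusted p = 0.750), and −0.14 without it. Counting separation with library 1 included, 4 genes lay lower without overlap (Ndufv3, Sdha, Cox6b2 and Sdhaf4) and 2 higher (Ndufb8, 0.35, and Ndufs8, 0.28), where 4.72% and 3.77% of all genes did. This was read on log2 CPM, which carry TMM scaling. By CPM on library totals alone, Ndufs8 in library 1 (46.8) lay below the other 17 libraries (54.3 or more). Its place among the higher genes thus depends on the scaling. Cox6b2 had 1, 6 and 3 counts in control and 0 in each RARa403 library, too few to give a fold.

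RARa403 spleen ILC1s were compared with control spleen ILC1s in the same way. The nuclear median was −0.00 with 45 of 91 above 0, and the mitochondrial median −0.19 with 3 of 13 above 0, beside −0.00 and 49.5% for all genes. Without spleen ILC1 control library 3 the mitochondrial median was 0.30 with all 13 above 0, so its direction rests on that library. With libraries 2 and 3 only the mitochondrial median was −0.59 (1 of 12 above 0) and the nuclear median 0.08 (57 of 91). edgeR called 0 of the 104 and 0% of all genes, and 0 of the 104 had an unadjusted p under 0.05, where 1.24% and 1.64% of all genes did. Cox7c was at 6.35, 6.22 and 6.06 log2 CPM in RARa403 and 6.01, 5.71 and 5.74 in control libraries, all RARa403 values higher (0.39, SE 0.44, edgeR adjusted p = 1). Atp5k (subunit e of the ATP synthase) was at 3.44, 3.32 and 3.38 in RARa403 and between 3.66 and 4.26 in control libraries, all RARa403 values lower (−0.63, SE 0.54, edgeR adjusted p = 1). With Atp5g2 (−0.27) that made 2 lower and 1 higher without overlap, where 4.87% and 4.12% of all genes did. Ndufc2 (0.46), Atp5d (0.28), Ndufa6 (−0.49) and Ndufaf5 (−1.36) completed the smallest p values among nuclear genes at 3 log2 CPM or more, each with edgeR adjusted p = 1, and Atp5d was at −0.058 without spleen ILC1 RARa403 library 1.

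The mean RARa403 effect over the 3 populations and its differences between them gave 0 calls among the 104 genes, with 0% of all genes called in each by edgeR. At an unadjusted p under 0.05 there were 0 of the 104 as well, where 4.04% of all genes were higher and 2.29% lower in the mean effect, 1.62% and 4.58% in the difference between liver ILC1s and NK cells, and 1.27% and 1.43% in that between spleen and liver ILC1s. In the mean effect the nuclear median was −0.10 (28 of 91 above 0) and the mitochondrial median −0.15 (2 of 13), beside 0.01 and 50.9% for all genes. Without liver NK RARa403 library 1 the mitochondrial median was 0.00 with 7 of 13 above 0, and with libraries 2 and 3 only the medians were 0.09 (65 of 91) and −0.13 (1 of 12). Cox8a (−0.33, SE 0.17) and Sdha (−0.39, SE 0.20) had the smallest p, both with edgeR adjusted p = 0.783, followed by Ndufaf3 (0.44), Ndufa5 (−0.36), Cox7c (0.31) and Cox6a1 (0.15), of which Cox6a1 was at −0.11 without liver NK RARa403 library 1 and at −0.0048 by limma-voom. The RARa403 effect in liver ILC1s minus that in NK cells had a mitochondrial median of 0.47 (12 of 13 above 0) and a nuclear median of −0.11 (35 of 91), beside 0 and 49.9% for all genes, and the mitochondrial value was 0.03 without liver NK RARa403 library 1. The nuclear value was −0.26 (16 of 91) without that library and 0.07 (52 of 91) without liver ILC1 control library 1. With libraries 2 and 3 only, the mitochondrial median was −0.14 (3 of 12) and the nuclear median −0.18 (24 of 91). Ndufa11 (−1.03) and Ndufv3 (1.13) led it, both with edgeR adjusted p = 0.811, with Ndufa10 (0.50), Sdha (0.44), Cox6a1 (−0.97) and Ndufs4 (−1.08) next. Without liver NK RARa403 library 1 Ndufv3 was at 0.84, Ndufa10 at 0.31, Sdha at 0.076 and Cox6a1 at −0.16, and with libraries 2 and 3 only Ndufa10 was at −0.13, Sdha at −0.00094 and Cox6a1 at −0.014.

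The RARa403 effect in spleen ILC1s minus that in liver ILC1s had a mitochondrial median of −0.34 (1 of 13 above 0) and a nuclear median of 0.14 (62 of 91), beside −0.02 and 48.6% for all genes. Both rest on single control libraries, since the mitochondrial value was 0.34 without spleen ILC1 control library 3 and the nuclear value −0.01 without liver ILC1 control library 1. With libraries 2 and 3 only they were −0.57 (1 of 12) and 0.10 (53 of 91). Among nuclear genes at 3 log2 CPM or more, the smallest p in each direction belonged to Atp5d (0.52), Sdhc (0.63), Ndufa11 (0.65), Ndufb8 (−0.38), Ndufaf5 (−1.24) and Ndufa6 (−0.35), each with edgeR adjusted p = 1.00, and Ndufa6 was at 0.093 without spleen ILC1 control library 1. A test for any difference among the 6 groups called 0.618% of all genes and 0 of the 104. Its smallest p among them was for mt-Nd5 (edgeR adjusted p = 0.379), the 1 gene of the 104 with an unadjusted p under 0.05, where 11% of all genes had one.

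The remaining mitochondrial messages were read at low levels or overlap a neighbour. The gene mt-Nd3 lay between −1.70 and 1.55 log2 CPM and mt-Nd4l between −0.86 and 2.13, and their control and RARa403 libraries overlapped in each population. The gene mt-Atp8 (0.36 to 2.91) overlaps mt-Atp6 in position (7766 to 7969 and 7927 to 8607), and mt-Nd6 (3.19 to 7.88) overlaps mt-Nd5 on the opposite strand (13552 to 14070). The sources used here give no strand setting for the counting, so reads from these overlaps cannot be assigned. In spleen against liver controls mt-Nd6 differed by 0.76, mt-Nd4l by 1.599, mt-Nd3 by 0.66, mt-Atp8 by 0.21, mt-Co3 by 0.59, mt-Nd2 by 0.70 and mt-Nd4 by 0.80 on the log2 scale, each with edgeR adjusted p = 1.

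Other genes of the pathway were read from 5 lists, with liver NK RARa403 library 1 included throughout. In the lists of electron carriers and other respiratory chain genes (28 tested), assembly factors outside the symbols above (34), genes that express the mitochondrial genome (33), nuclear regulators of respiratory genes (17) and the citric acid cycle with pyruvate entry (26), 0 genes were called in the RARa403 comparisons, in control ILC1s against NK cells or in control spleen against liver ILC1s. Over both genotypes Gpd2, the mitochondrial glycerol-3-phosphate dehydrogenase that feeds electrons to ubiquinone, was lower in ILC1s than in NK cells and was the only called gene of these lists (log2 fold change −0.98, edgeR adjusted p = 0.0464). Of all genes 1.39% were called higher and 0.7% lower in that comparison, which was chosen after the values were seen. A single call thus does not set these lists apart. In the controls alone Gpd2 was at −0.77 (edgeR adjusted p = 0.607). Pdk1, a kinase that shuts pyruvate dehydrogenase, had 1.71 in control ILC1s against NK cells (edgeR adjusted p = 0.402) and 1.56 over both genotypes (edgeR adjusted p = 0.0745). Esrra, a nuclear receptor for respiratory genes, had −1.08 over both genotypes (edgeR adjusted p = 0.180). Tfeb, a lysosomal regulator, had −0.99 there (edgeR adjusted p = 0.172).

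In the RARa403 comparisons the smallest p in each list was for the following genes. In liver ILC1s these were Coq8a (0.88), Lyrm7 (5.53), Lrpprc (1.16), which stabilises mitochondrial messages, Rxra (1.20), the partner of retinoic acid receptors, and Pdk2 (1.09), each with edgeR adjusted p = 1. In NK cells these were Slc25a3 (1.12, edgeR adjusted p = 0.483), Atpaf1 (2.90, edgeR adjusted p = 0.428), Mtif3 (3.58, edgeR adjusted p = 0.431), Myc (1.18, edgeR adjusted p = 0.470) and Idh2 (1.43, edgeR adjusted p = 0.445). In spleen ILC1s these were Coq3 (−1.16), Coa5 (−0.63), Tbrg4 (−0.85), Rxra (1.19) and Sucla2 (−0.53), each with edgeR adjusted p = 1. The medians of the 5 lists lay between −0.22 and 0.18 in these 3 comparisons. For Rxra the mean effect over the 3 populations was 0.82 (edgeR adjusted p = 0.760).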

How the data were processed

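Gene counts of 18 SMART-seq libraries were used as the authors deposited them. Per the submitters' processing notes, fastp 0.23.0, HISAT2 2.1.0, featureCounts of Subread 1.6.5 and mm10 were used. The sources used here do not give the annotation release, the strand setting or how multi-mapping reads were treated. The genes and lists were chosen with earlier results of these data known.

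Of 46078 genes, 45229 matched the mm10 annotation, and the other 849 held 0.0544% of counts. A further protein-coding row (1 gene) that the symbols would select is absent from the table. Genes passing edgeR's filterByExpr (minimum count 10) were fitted with TMM scaling and 1 mean per group over all 18 libraries, and tested by edgeR's quasi-likelihood test (edgeR 4.0.16, R 4.3.3) with Benjamini-Hochberg adjustment over 14714 genes at 0.05. The biological coefficient of variation was 0.862, and p-values measure only the spread between these libraries. Log2 CPM used TMM scaling and a prior count of 2, while CPM and shares of counts used library totals alone. Medians over a list have no test. The test was tried on simulated data, and its recovery of known changes is not reported here. With 3 libraries per group and this spread, 0 calls do not show that no gene changed. Depth, 3452279 to 9038767 counts, limits precision for low genes.

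Named were all mitochondrial genes, nuclear genes called, or otherwise the 3 of smallest p per direction at 3 log2 CPM or more, genes without overlap of the libraries, tissue isoforms, the highest per length in each complex and those of extreme range. A gene that this rule names is not reported here. From the other lists, called genes and up to 2 of smallest p were taken. Cox4i1, Rara, Gt(ROSA)26Sor and genes given for liver NK RARa403 library 1 were named after their values were seen. Alternatives were RLE scaling, no filter, DESeq2 1.42, limma-voom (limma 3.58.1), other sets of libraries and added terms. Comparisons over both genotypes, the counts with copies and those of genes with unique sequence were chosen after seeing the data.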

Additional observations from a re-analysis of the deposited data

How the results depend on the processing

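The number of genes called was 0 of the 104 in all comparisons under RLE scaling, DESeq2 (not run for the test among the 6 groups), library totals without mitochondrial counts, with only the groups compared, with the opening code number as a term and with each library left out in turn. There were exceptions in liver ILC1s against NK cells over both genotypes. Without the filter mt-Co1 was called (1.02, adjusted p = 0.00147 by edgeR), where 463 of 32798 genes were called higher. That fit tested 96 nuclear and 13 mitochondrial genes of the pathway. Sdhb was called by limma-voom with quality weights (−0.46, adjusted p = 0.0200), where 383 of 14714 genes were called lower. It was also called with replicates 2 and 3 only (−0.49, edgeR adjusted p = 0.0448), where 244 of 14192 genes were called lower. In the test among the 6 groups 5 were called without the filter (mt-Co1, mt-Nd1, mt-Nd4, mt-Nd5 and mt-Cytb), where 1918 of 32798 genes were called. Taken over all tested pathway genes, none of these counts was a larger share than over all genes. The cause of these exceptions was not tested. In control ILC1s against NK cells the log2 ratio of mitochondrial to nuclear counts was 0.13 with genes of unique sequence only and 0.30 with all. Leaving out each library in turn, the mitochondrial median ranged from 0.031 (without liver NK RARa403 replicate 1) to 1.30 for the RARa403 effect in liver ILC1s against NK cells and from −0.51 to 0.34 for that in spleen against liver ILC1s.

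Counts over all genes also moved, and as raw numbers from a far larger set they cannot be ranked against those of the pathway. Genes tested were 14714 in the main fit, by DESeq2 and by limma-voom, 32798 without the filter and 14192 with replicates 2 and 3 only. In control liver ILC1s against NK cells, 89 genes were called by edgeR, 355 without the filter, 419 by DESeq2, 479 by limma-voom, 343 with only these groups, 221 with replicates 2 and 3 only and 290 without liver NK RARa403 library 1. Over both genotypes the numbers were 307, 966, 825, 906, 174, 590 and 503. In the RARa403 comparisons of liver ILC1s, NK cells and spleen ILC1s edgeR called 0, and DESeq2 called 33, 153 and 20, and the fit without the filter 43, 523 and 32. For the mean RARa403 effect these were 0, 78 and 230, with 12 by limma-voom and 13 with replicates 2 and 3 only, and for control spleen against liver ILC1s 0, 26 and 78. For the differences of the RARa403 effect they were 0, 43 and 268 (liver ILC1 and NK) and 0, 18 and 41 (spleen and liver). For spleen against liver over both genotypes they were 0, 48 and 127, with 13 from replicates 2 and 3. The test among the 6 groups called 91, 1918 without the filter, 192 with replicates 2 and 3 only and 201 without liver NK RARa403 library 1.

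Deviations from the group means correlated weakly between same-numbered libraries, at −0.0947 to 0.175 for RARa403 with control. Between populations of 1 genotype the range was −0.0579 to 0.199, with a median of 0.0824 against −0.0403 for other numbers. These libraries of 1 genotype also share the closing number of the description code, and whether they came from the same animals is not stated. Pairing is thus not settled. Libraries were fitted as independent, and a replicate block was an alternative only. With the replicate block 0 of the 104 genes were called in every comparison, and over all genes 29, 206 and 41 were called in control ILC1s against NK cells, over both genotypes and among the 6 groups. The 3 libraries per group, low counts of mt-Nd3 and mt-Nd4l, and the copies of mitochondrial genes limit what these data can show.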
